A study of Mus musculus with 8 samples.

Results

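The histone genes of the mouse were followed in poly-A selected RNA-seq libraries, as the rows of the deposited table whose symbol starts with H1f, H2ac, H2bc, H2az, H3c, H3f, H4c, H4f, H2af, H2ax or one of the older Hist cluster prefixes. This selected 79 of 22063 genes, of which 67 are replication-dependent genes, 10 are variant genes and 2 are pseudogenes. The rule reads symbols and no measured value, although earlier results of these data were known when it was set. The series holds 8 libraries of wild-type mice, all labelled as liver, 4 of a control group and 4 of a group given tranilast on top of the control condition. Tranilast is a synthetic anti-allergic drug. The series design describes both groups as fed a high-fat, high-cholesterol diet, whereas the sample labels name neither diet, dose, age nor batch. The paper's methods describe male C57BL/6J mice and do not tie a dose to the sequenced livers. Nothing in the labels says that the libraries of a group came from separate animals, so that p-values measure only the spread between these libraries, which may be technical.

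The control libraries held between 14585153 and 15618787 counts and the tranilast libraries between 12053036 and 14679386, and a count of 0 allowed up to 3 counts, or 0.192 to 0.249 CPM, the usual counts scaled to a common library total. That limit covers counting error only. The tissue label was checked against markers. The 9 hepatocyte markers summed to at most 0.000149% of the counts of any library, 4 of them were at 0 throughout, and albumin had 0 to 2 counts. The 8 macrophage markers, with Lyz2 and Csf1r, took 0.891% to 0.944% of the counts in the control libraries and 0.873% to 0.928% in the tranilast libraries. Only 7 of these 8 markers exceeded 3 counts in any library. The Kupffer cell markers Clec4f, Vsig4 and Timd4 were at 0 in all 8 libraries. The lymphocyte, endothelial, stellate cell and cholangiocyte lists each summed to at most 0.000192%. The defining transcripts of liver parenchyma were thus at or near 0, and the values below describe the RNA of these libraries and not that of hepatocytes. In bulk RNA, fewer cells of a type and less RNA per cell cannot be told apart.

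Histones package DNA into nucleosomes, in which pairs of H2A, H2B, H3 and H4 form the core and an H1 linker histone binds outside it. Most are made during S phase from clustered replication-dependent genes, whose messages have no introns and end in a stem-loop, bound by the stem-loop binding protein, in place of a poly-A tail. Variant histones are made from separate genes throughout the cell cycle, as spliced or unspliced polyadenylated messages, and replace the canonical histones outside replication. A library made by poly-A pull-down captures the second kind of message and, in principle, only those replication-dependent transcripts that carry a tail.

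The letters at the transcript ends differed between the classes, and a few of them are shown as examples. Whether the letters of a gene go with its capture in these libraries was not tested. The stem-loop was searched on the sense strand of every GENCODE M21 transcript as GG, any 2 bases, CTTTT, any 1 base, AG, any 2 bases and CC, and the poly-A signal as AATAAA or ATTAAA within the last 50 bases. The 30-base windows below are on GRCm38 and written in the sense of the gene, with the stem-loop or the poly-A signal in capitals. H2ax and H1f2 have both, H3c2 has the stem-loop letters only, and H2bc21 and H1f0 have the poly-A signal only.
H2ax stem-loop, chr9:44335233-44335262, plus strand: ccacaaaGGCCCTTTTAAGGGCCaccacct
H2ax poly-A signal, chr9:44336031-44336060, plus strand: tgggctaattttATTAAAggatcgtttggt
H1f2 stem-loop, chr13:23739505-23739534, plus strand: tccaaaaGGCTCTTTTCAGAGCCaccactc
H1f2 poly-A signal, chr13:23740330-23740359, plus strand: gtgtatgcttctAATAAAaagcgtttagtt
H3c2 stem-loop, chr13:23752813-23752842, plus strand: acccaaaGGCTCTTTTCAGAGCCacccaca
H2bc21 poly-A signal, chr3:96223705-96223734, plus strand: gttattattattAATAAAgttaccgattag
H1f0 poly-A signal, chr15:79030471-79030500, plus strand: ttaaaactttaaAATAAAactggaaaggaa

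The stem-loop letters were present in 44 of the 67 replication-dependent genes (65.7%) and in 1 of the 10 variants, which was H2ax. Across the annotation they were found in 72 of 21901 protein-coding genes (0.329%), and 45 of these were histone genes selected here. Of the 23 replication-dependent genes without the letters, 13 have only transcript models that end at a stop codon. For these the annotation holds no downstream bases to search for the stem-loop or the poly-A signal. The poly-A signal was found in 17 replication-dependent genes (25.4%), in 9 variants (90%) and in 77.9% of all protein-coding genes. The classes also differed in structure. Of the 67 replication-dependent genes, 62 had a single exon, with a median longest transcript of 539 bases, and 54 lay on chromosome 13, 10 on chromosome 3, 2 on chromosome 11 and 1 on chromosome 6. Of the variants, 5 of 10 had a single exon, the median longest transcript was 1346 bases, and they were spread over 6 chromosomes.

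Nearly all histone reads came from variants. The 10 variant genes together took 1938 to 1987 CPM in the control libraries and 1642 to 1695 in the tranilast libraries, without overlap, which is on average 0.196% and 0.167% of a library. The 67 replication-dependent genes together took only 29.2 to 30.7 CPM in the control libraries and 31.3 to 32.9 in the tranilast libraries, on average 0.0030% and 0.0032%. For every 100 variant counts there were thus 1.504 to 1.572 replication-dependent counts in control libraries and 1.865 to 1.957 in tranilast libraries, again without overlap.

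The apparent order of the replication-dependent sums depended on the scaling. After scaling by the trimmed mean of M values (TMM), whose factors were 0.956 to 0.965 for control and 1.037 to 1.045 for tranilast libraries, control libraries had a sum of 31.2 ± 0.86 CPM (SD, n = 4) and tranilast libraries one of 30.8 ± 0.76, and the groups overlapped. The variant sum was 2043 ± 28.0 CPM in the control group and 1606 ± 21.1 in the tranilast group on the same scale. The variants without H2ax summed to 1880 ± 33.2 and 1566 ± 21.03 CPM, so that the lower variant sum in the tranilast group did not rest on H2ax alone. With library size alone in place of TMM, the median log2 fold change of all tested genes moved from 0.01 to 0.12, and on the FPKM scale with 1 added to 0.10.

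Length was taken into account with the deposited FPKM, in which fragments are scaled by transcript length and library depth. H3f3b was the histone gene with the highest level in the control group at 402.7 ± 6.55 FPKM (SD, n = 4), followed by H2az1 at 382 ± 11.8 and H3f3a at 342 ± 14.9. The libraries of H3f3b (394.1 to 409.9) lay just above those of H2az1 (366.5 to 394.0), and those of H3f3a (325.9 to 360.4) below both. In the tranilast group this order was not kept, since H3f3a at 377 ± 9.62 (366.6 to 389.7) lay above H3f3b at 357 ± 7.69 (346.2 to 363.6), and H2az1 at 348 ± 15.2 (333.4 to 368.1) overlapped both. H2ax (113 ± 7.71 FPKM) and H1f0 (103 ± 3.53) stood next in the control group, with libraries that overlapped, and were at 30.1 ± 2.34 and 61.0 ± 3.54 in the tranilast group. H2az2 was near 19 FPKM in both groups. No replication-dependent gene reached the level of H2az2, and the highest were H2ac18 at 7.10 ± 2.92 FPKM in the control group and 7.99 ± 2.27 in the tranilast group, H2bc4 at 4.91 ± 0.44 and 7.50 ± 1.24, and H1f2 at 4.88 ± 0.45 and 5.77 ± 1.13.

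**Figure D1:**
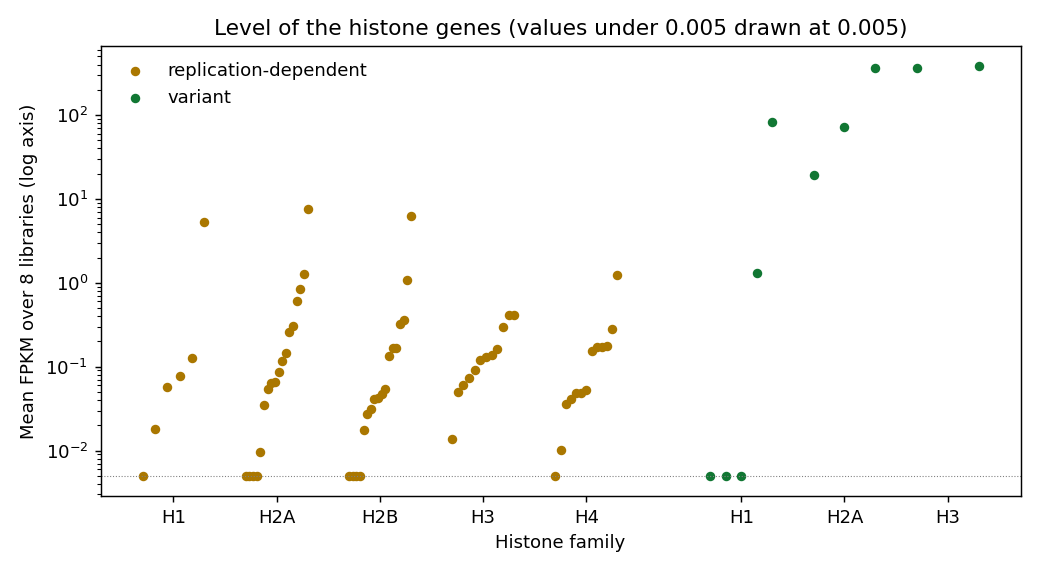
The mean FPKM over the 8 libraries is drawn on a log axis for each replication-dependent and variant gene, by family, with values under 0.005 drawn at 0.005. The highest replication-dependent gene, H2ac18 at 7.55 FPKM, lies below 6 of the 10 variants, of which H3f3b is the highest at 380 FPKM.

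Of the 79 genes, 13 passed the expression filter, 7 variants and 6 replication-dependent genes, and 66 did not. A gene could pass through 1 group alone. In the comparison of tranilast with control by the quasi-likelihood test of edgeR, adjusted over 10770 genes, 57% of all tested genes passed an adjusted p of 0.05, 28.2% higher and 28.8% lower in the tranilast group. With library size alone these shares were 42.8% higher and 17.6% lower, and with upper-quartile factors 36% and 21.6%. Among the 7 tested variants 4 were lower and 0 higher. Among the 6 tested replication-dependent genes 1 was higher and 0 were lower. Both counts of 0 were also 0 at an unadjusted p under 0.05, and in DESeq2 and limma-voom. They were not 0 in every alternative. H3f3a was called higher with upper-quartile factors, library size alone and FPKM, and H3c1 lower without the filter, as given below. The groups did not overlap in 5 of the 13, 4 variants and 1 replication-dependent gene, beside 49.8% of all tested genes. The median log2 fold change was -0.25 over the 7 variants, 0.05 over the 6 replication-dependent genes and 0.01 over all tested genes. The difference between the classes was not tested. The 5 calls of 13 are fewer than the background of the table would give, so the count itself says nothing particular about histone genes, and the sizes of the changes are given gene by gene.

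**Figure D2:**
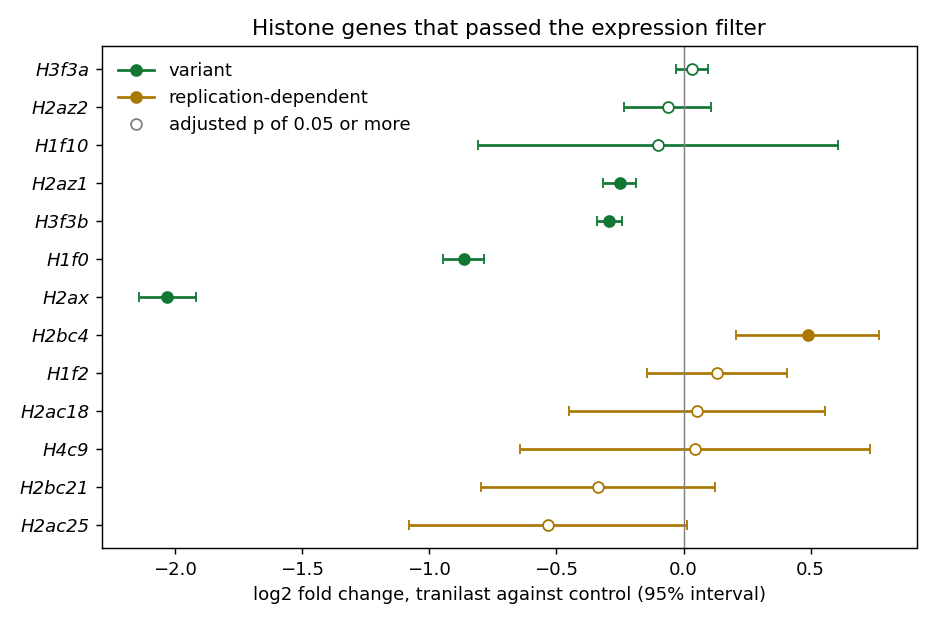
The log2 fold change of tranilast against control is drawn for the 13 tested histone genes with 95% intervals of 1.96 standard errors of the edgeR fit, filled where the adjusted p was under 0.05. H2ax at -2.03 lies apart from the other genes, 3 further variants are filled below 0, and H2bc4 at 0.49 is the only filled point above 0.

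H2ax encodes H2A.X, the H2A variant that is phosphorylated around DNA double-strand breaks, and its gene (ENSMUSG00000049932, chromosome 9, 44334694 to 44336077, GRCm38) is known to give both kinds of message and holds both sets of letters printed above. Its TMM-scaled level was 159.1, 150.2, 171.1 and 173.7 CPM in control libraries 1 to 4 and 38.3, 36.7, 41.2 and 43.6 CPM in tranilast libraries 1 to 4. Every tranilast library was far below every control library. The mean fell from 163.5 ± 10.9 to 40.0 ± 3.06 CPM (SD, n = 4 each), a log2 fold change of -2.03 (SE 0.057, adjusted p = 3.19e-15 by edgeR), with an exact two-sided permutation p of 0.0286, the smallest that 4 against 4 libraries allow. The counts behind it were 2163 to 2560 in control and 508 to 669 in tranilast libraries. The fold change of H2ax ranked 18 from the lowest of 10770 genes. Of the selected histone genes that passed the filter, only H2ax passed the absolute log2 fold change of 1.5 in the paper's methods. That bound was passed by 1.11% of tested genes in either direction and by 0.483% in the lower. Over the alternative settings the log2 fold change ranged from -2.07 to -1.88. H2ax held 7.23% to 8.49% of the variant counts in control libraries and 2.30% to 2.69% in tranilast libraries.

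H1f0 encodes H1.0, the replacement linker histone that is associated with cells that have left the cycle (ENSMUSG00000096210, chromosome 15, 79028450 to 79030504). It was at 219.7, 209.7, 224.0 and 225.5 CPM in the control libraries and at 129.3, 116.9, 112.9 and 122.8 CPM in the tranilast libraries. All 4 tranilast libraries lay below all 4 control libraries. H1f0 fell by 0.87 on the log2 scale (SE 0.041, adjusted p = 4.58e-12 by edgeR, exact permutation p = 0.0286), from a mean of 219.7 ± 7.10 to 120.5 ± 7.14 CPM (SD, n = 4), and the alternatives gave -0.90 to -0.74. Its fold change ranked 246 from the lowest of all tested genes. An annotated antisense transcript, Gm49544, overlaps the start of its single exon, and without a stated strand setting the reads of the pair cannot be told apart.

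H3f3a and H3f3b encode the same protein, H3.3, which is deposited at active genes by the HIRA complex and at heterochromatin by DAXX and ATRX. H3f3b (ENSMUSG00000016559, chromosome 11, 116021912 to 116027962) was at 832.9, 857.3, 843.3 and 817.6 CPM in the control libraries and at 700.2, 683.2, 692.8 and 661.1 CPM in the tranilast libraries. The groups did not overlap, and H3f3b fell by 0.29 on the log2 scale (SE 0.025, adjusted p = 1.62e-08 by edgeR, exact permutation p = 0.0286), with -0.30 to -0.17 over the alternatives.

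H3f3a (ENSMUSG00000060743, chromosome 1, 180800832 to 180813943) was at 356.1, 393.3, 366.0 and 373.6 CPM in the control libraries and at 381.1, 380.0, 367.8 and 394.8 CPM in the tranilast libraries. The groups overlapped. The log2 fold change was 0.03 (SE 0.033, 95% interval -0.03 to 0.10, adjusted p = 0.393 by edgeR, exact permutation p = 0.371). This call depended on the scaling. H3f3a was called higher in the tranilast group at 0.10 with upper-quartile factors (adjusted p = 0.0172), at 0.15 with library size alone (adjusted p = 5.55e-04) and at 0.14 on the log2 scale of FPKM with 1 added (adjusted p = 0.00553), and the groups did not overlap in CPM by library size. The ratio of H3f3b to H3f3a counts within a library needs no scaling. It was 2.18 to 2.34 in the control libraries and 1.67 to 1.88 in the tranilast libraries, without overlap. Both genes together gave 1210 ± 28.6 CPM in the control group and 1065 ± 11.2 CPM in the tranilast group. H3f3a shares exon bases with H3f3aos and Gm17275 on the opposite strand. Without a stated strand setting their reads cannot be told apart.

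The promoters of this pair are shown because the genes make the same protein and differed in the comparison. The windows are from RefSeq on GRCm38.p6, 250 bases before to 50 after the annotated start, with CCAAT (or ATTGG), the octamer ATTTGCAT (or ATGCAAAT) and TATAAA in capitals, the first 2 searched on both strands and the last on the sense strand. The GC box, GGCGGG or CCCGCC, and the cell cycle homology region, TTTGAA or TTCAAA, were also searched on both strands and are left in lower case. H3f3a holds 1 CCAAT and 6 GC boxes, and H3f3b holds 4 CCAAT, 1 octamer, 1 TATAAA and 1 GC box.
H3f3a promoter, chr1:180813556-180813855, minus strand: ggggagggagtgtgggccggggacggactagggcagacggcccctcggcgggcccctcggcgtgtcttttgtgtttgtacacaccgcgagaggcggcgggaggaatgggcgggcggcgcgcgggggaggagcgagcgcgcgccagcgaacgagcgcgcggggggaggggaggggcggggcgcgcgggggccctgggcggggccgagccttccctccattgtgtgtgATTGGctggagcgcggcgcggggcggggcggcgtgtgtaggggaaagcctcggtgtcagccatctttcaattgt
H3f3b promoter, chr11:116024455-116024754, minus strand: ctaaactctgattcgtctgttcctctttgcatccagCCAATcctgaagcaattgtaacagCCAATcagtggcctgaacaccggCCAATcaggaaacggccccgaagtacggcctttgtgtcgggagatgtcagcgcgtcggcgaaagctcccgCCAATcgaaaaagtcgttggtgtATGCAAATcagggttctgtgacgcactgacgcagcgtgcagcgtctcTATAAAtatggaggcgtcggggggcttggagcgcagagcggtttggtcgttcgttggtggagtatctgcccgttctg

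Of 32851 RefSeq promoter windows of that length 37.4% held CCAAT, 1.74% the octamer and 8.32% TATAAA. Of the 59 windows of replication-dependent genes, the shares were 86.4%, 22% and 49.2%. Of the 15 windows of H2B genes among them 46.7% held the octamer. These are counts of windows and not of genes, since H2bc6 was counted with both of its windows. Of the 9 variants with a window, 66.7% held CCAAT, 11.1% the octamer and 11.1% TATAAA. The GC box was in 35.3% of all windows, 33.9% of the replication-dependent and 66.7% of the variant ones, and the cell cycle homology region in 17.9%, 44.1% and 11.1%. These are matches of letters and not bound sites.

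H2A.Z, which marks nucleosomes beside transcription start sites, is made from H2az1 and H2az2. H2az1 (ENSMUSG00000037894, chromosome 3, 137864487 to 137866922) was at 420.2, 439.1, 406.0 and 428.7 CPM in the control libraries and at 348.0, 357.7, 341.2 and 375.2 CPM in the tranilast libraries. No tranilast library reached the lowest control library on the TMM scale, whereas the groups overlapped in CPM by library size. H2az1 fell by 0.25 on the log2 scale (SE 0.033, adjusted p = 3.58e-06 by edgeR, exact permutation p = 0.0286), and the alternatives gave -0.27 to -0.14 with adjusted p-values of up to 0.00871.

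H2az2 (ENSMUSG00000041126, chromosome 11, 6427229 to 6444443) was at 20.3, 25.1, 27.7 and 26.8 CPM in the control libraries and at 25.3, 23.8, 23.2 and 23.5 CPM in the tranilast libraries. The tranilast libraries lay within the range of the control libraries, and the log2 fold change of -0.06 (SE 0.087, 95% interval -0.23 to 0.11, adjusted p = 0.556 by edgeR) turned to 0.05 with library size alone. The counts of H2ax relative to those of H2az1, both H2A variants, were 0.342 to 0.421 in the control libraries and 0.103 to 0.121 in the tranilast libraries, again free of the scaling and without overlap.

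**Figure D3:**
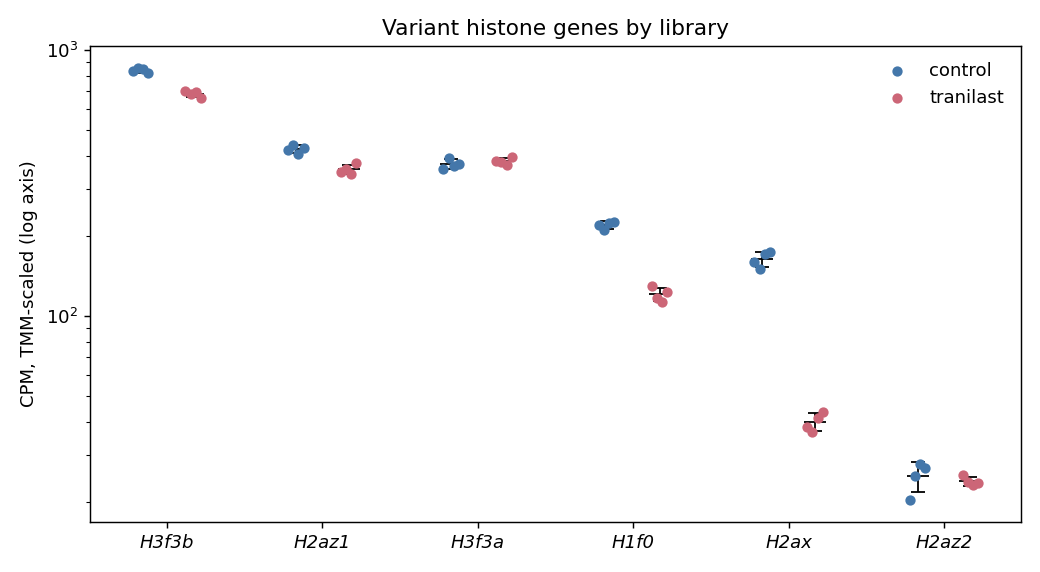
TMM-scaled CPM on a log axis in each library is drawn for the 6 variants with a mean count of at least 100, with the mean and SD of each group of 4. The tranilast libraries lie below all control libraries for H3f3b, H2az1, H1f0 and H2ax, and the groups overlap for H3f3a and H2az2.

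The other 4 variants are linker histones. H1f10, which encodes the linker variant H1X, had 14 to 38 counts in control and 7 to 30 in tranilast libraries, a log2 fold change of -0.10 (SE 0.36, 95% interval -0.81 to 0.61, adjusted p = 0.828 by edgeR), an interval that holds changes of either sign. H1f7, H1f8 and H1f9, the linker histones of the male germ line and the oocyte, were at 0 in all 8 libraries.

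Among the replication-dependent genes H2bc4, an H2B gene of the large cluster (ENSMUSG00000018102, chromosome 13, 23684199 to 23692908), was the only one called. Its estimated counts were 90.69, 77.78, 83.03 and 89.26 in the control libraries and 138.30, 106.54, 114.21 and 102.26 in the tranilast libraries, which is 6.47, 5.42, 5.55 and 6.21 CPM against 9.79, 7.74, 9.10 and 6.65 CPM. Every tranilast library was above every control library, the lowest by a small margin. H2bc4 rose by 0.49 on the log2 scale (SE 0.14, adjusted p = 0.00737 by edgeR, exact permutation p = 0.0286), from 5.91 ± 0.51 to 8.32 ± 1.40 CPM (SD, n = 4), and the alternatives gave 0.40 to 0.61 with adjusted p-values of up to 0.0345. It has 2 exons in a transcript model, and neither the stem-loop letters nor a poly-A signal was found in the windows searched. The deposited counts are not whole for this gene, as happens where the counting shares reads between similar genes.

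H1f2, a linker histone of the cluster (ENSMUSG00000036181, chromosome 13, 23738808 to 23740367), had 108, 102, 122 and 126 counts in the control libraries and 108, 133, 86 and 160 counts in the tranilast libraries. The tranilast libraries spread to both sides of the control libraries, and the log2 fold change was 0.13 (SE 0.14, 95% interval -0.14 to 0.41, adjusted p = 0.445 by edgeR). H2ac25, an H2A gene on chromosome 11 with the lowest fold change of its class, had 34.26, 26, 30 and 34.87 counts against 25.74, 25, 19.55 and 12.15. All 4 tranilast counts lay below the lowest control count, the groups overlapped in CPM, and the log2 fold change of -0.53 (SE 0.28, 95% interval -1.08 to 0.02) had an adjusted p of 0.114 by edgeR. The annotated start of H2ac25 coincides with that of Trim17 on the same strand. Trim17 spans the whole of H2ac25 and shares exon bases with it, so the counts of the 2 genes cannot be told apart. H2bc21, at 36 to 53 and 21 to 46 counts, and H4c9, at 10 to 14 and 8 to 20 counts, had log2 fold changes of -0.34 (adjusted p = 0.235) and 0.05 (adjusted p = 0.923) in the same edgeR fit.

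The pair H2ac18 and H2ac19, H2A genes of the chromosome 3 cluster, could not be measured one by one. H2ac18 had 33.60, 96, 69 and 52.96 counts in the control libraries and 72, 80.01, 35.50 and 65.36 in the tranilast libraries, while H2ac19 had 26.40 in control library 1, 31.50 and 14.64 in tranilast libraries 3 and 4, and 0 elsewhere. H2ac19 was counted only in libraries in which H2ac18 had a fractional count, and their 30-base stem-loop windows hold the same letters. H2ac18 also shares exon bases with Gm20634 on the same strand, and with Gm20633 and Gm47313 on the opposite strand. The sum of the pair has the same limit. Summed, the pair had 60, 96, 69 and 52.96 counts against 72, 80.01, 67 and 80, and the groups overlapped, with a log2 fold change of 0.16 in a fit of the sum that was added after the data were seen.

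With H2ac19, these 7 genes held 75.4% to 83.8% of the replication-dependent counts in the control libraries and 87.1% to 89.8% in the tranilast libraries. The other 60 replication-dependent genes were all under the filter, and none had more than 15.18 counts in a library, a value reached by H3c15. They summed to 73.30, 107.24, 117.97 and 71.38 counts in the control libraries and to 45.70, 55.46, 44.79 and 52.75 in the tranilast libraries. On the TMM scale this was 6.38 ± 1.497 CPM in the control group and 3.57 ± 0.33 CPM in the tranilast group. The groups did not overlap on this scale or by library size. That separation depends on leaving out H2ac19, which was also under the filter. With H2ac19 added, tranilast library 3 would lie above control library 4, and the groups would overlap. Of the 51 that had a count at all, 37 had a higher mean in the control group and 14 in the tranilast group. The same split was not computed over all genes of such low counts, so it is not read as a result about histone genes. The genes share libraries and some share reads, so no test was run on the sum.

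By family, the replication-dependent H3 genes, which were all under the filter, were the only family whose sums did not overlap under either scaling. They summed to 27, 36.01, 43 and 25 counts in the control libraries and to 13, 17, 7 and 13 in the tranilast libraries. On the TMM scale this was 2.26 ± 0.52 and 0.89 ± 0.28 CPM. These are few counts over 12 genes, and 49.8% of all tested genes also did not overlap in CPM. No test was run on the family sums, so the separation is not read as a result about H3 genes. The H1, H2A and H4 sums overlapped between groups under both scalings. The H2B sum overlapped on the TMM scale (10.5 ± 0.54 and 11.8 ± 1.79 CPM) and not by library size, where control libraries had 9.30 to 10.4 and tranilast libraries 10.7 to 14.1. Without the expression filter 40.5% of 15421 genes were called in either direction, and among the histone genes H3c1 was called lower in addition. It had 0, 0, 5 and 2.81 counts in the control libraries and 0 in all 4 tranilast libraries. The log2 fold change was -4.06 (adjusted p = 0.0427 by edgeR). Those control counts are near the limit that a count of 0 allows.

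**Figure D4:**
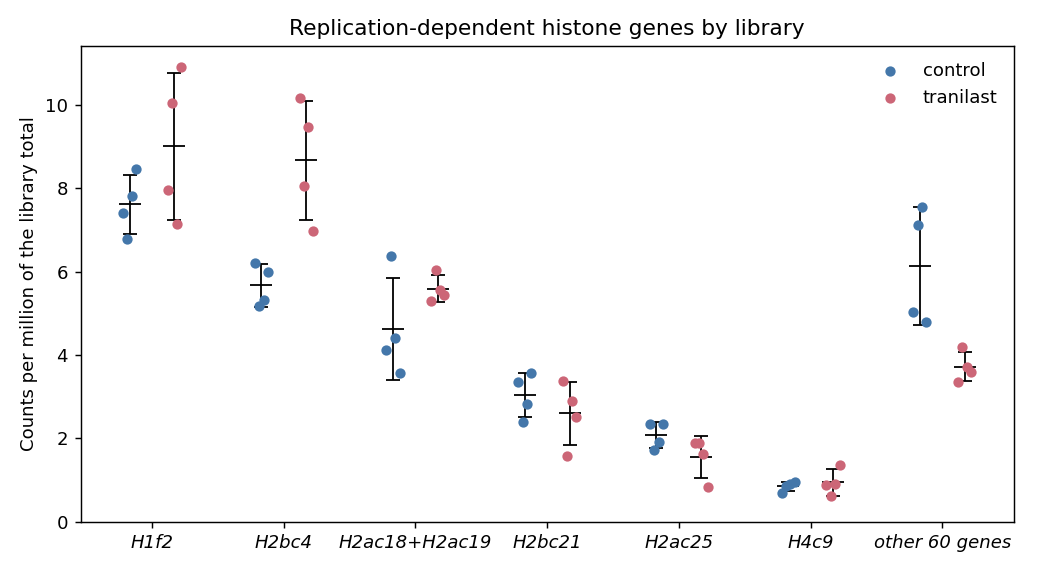
CPM by library total is drawn in each library for the leading replication-dependent genes, the sum of H2ac18 and H2ac19, and the sum of the other 60 genes, with the mean and SD of each group of 4. The tranilast libraries lie above the control libraries for H2bc4 and below them for the other 60 genes, and the groups overlap elsewhere.

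In all, 13 of the 79 genes were at 0 in every library, 9 replication-dependent genes, the 3 germ-line linker variants and 1 pseudogene, and the other pseudogene, H3f4, had 2 counts in 1 library. Of the 67 replication-dependent genes, 36 never exceeded 3 counts, 25 reached more than 3 and at most 20, and 6 reached more. Counts were present only in control libraries for 13 genes, only in tranilast libraries for 3 and in both groups for 42. The control libraries held more counts in total, and the same split was not counted over all genes. It is therefore not read as a difference between the groups. A poly-A signal near the transcript end was found in 4 of the 7 leading genes. The 17 genes with the signal had a median of 1.95 for the mean count per library, and the 50 in which none was found one of 0.55. Those 50 include the 13 genes whose transcript models all end at a stop codon, so that no downstream bases could be searched. The medians are thus not a comparison of genes with and without a signal.

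The machinery that makes and ends histone messages was tested in the same libraries. Of 28 listed genes for 3′ processing and turnover, 27 were in the table and tested, and 8 were higher and 11 lower in the tranilast group, with a median log2 fold change of -0.07, beside 28.2% and 28.8% of all tested genes. The split was 10 higher and 7 lower with library size alone, beside 42.8% and 17.6% of all tested genes, so that it moved with the table as a whole. Every gene given with a fold change from this and the next lists passed an adjusted p of 0.05 in edgeR. The highest of the list were Ccne2 and Ccne1, the E-type cyclins whose kinase partner activates histone gene transcription, and Lsm10, a subunit of the U7 particle that guides cleavage after the stem-loop. Their log2 fold changes were 0.43, 0.39 and 0.43. The lowest were Pou2f1 at -0.65, the factor that binds the octamer, Srrt at -0.49, the ARS2 protein of the cap-binding complex, and Snrpb at -0.40, a core protein of small nuclear ribonucleoproteins. Slbp, the stem-loop binding protein, rose from 112.8 to 145.4 CPM (log2 fold change 0.37, adjusted p = 2.09e-07 by edgeR), and Npat and Casp8ap2, which sit at the histone locus body, rose by 0.15 and 0.26. These last 3 genes were chosen after their values were seen, and they do not stand for the list. Of the 27 genes tested 8 were not called, among them Lsm11, Zfp473 and Hinfp.

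Of 34 histone chaperones and exchange factors, all tested, 8 were higher and 19 lower, with a median of -0.10, beside 28.2% and 28.8% of all tested genes. With library size alone 13 were higher and 11 lower, beside 42.8% and 17.6%. Set, a nucleosome assembly factor, fell by 0.68 on the log2 scale from 1038 ± 14.8 to 647 ± 8.09 CPM (SD, n = 4). Anp32e, which removes H2A.Z from nucleosomes, fell by 0.78 from 374 ± 6.41 to 218 ± 7.08 CPM. Daxx, the chaperone that places H3.3 at heterochromatin, fell by 0.59 from 91.4 ± 13.5 to 61.1 ± 13.3 CPM. The Daxx libraries were uneven, with tranilast library 1 at 78.5 CPM beside 79.4 in control library 1, and the groups overlapped in CPM by library size. The highest were Tonsl at 0.47, which reads newly replicated histones, Ubn1 at 0.38, a subunit of the HIRA complex, and Chaf1b at 0.33, a subunit of the chaperone that deposits H3 and H4 behind the replication fork.

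Replication-dependent histone genes are transcribed in S phase, and genes of DNA replication were counted beside them. Of 24 genes of DNA replication and S phase, all tested, 12 were higher and 6 lower in the tranilast group, with a median log2 fold change of 0.09, beside 28.2% and 28.8% of all tested genes. With library size alone 16 were higher and 3 lower, beside 42.8% and 17.6%. Cdc6 and Cdt1, which license origins, and the transcription factor E2f1 rose by 0.62, 0.32 and 0.62. Rrm1, the large subunit of ribonucleotide reductase, fell by 0.45, Tk1, thymidine kinase, by 0.44, and Pola1, the primase-associated polymerase, by 0.28. The part of these changes in the histone values was not tested.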

How the data were processed

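RNA was extracted with Trizol, poly-A selected and sequenced as paired ends. The paper's methods name a HiSeq X-ten instrument and the labels a NovaSeq, and the aligner, counting tool and genome build are not given in the sources used here. The authors deposited an estimated count per gene, of which 92.7% to 93.9% of values in a library were whole, and FPKM, normalized by the authors for transcript length and depth. Groups were taken from the sample labels.

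Estimated counts were rounded, genes were filtered with filterByExpr, libraries were TMM-scaled, and tranilast was compared with control without covariates by the quasi-likelihood test of edgeR 4.0.16 under R 4.3.3, with Benjamini-Hochberg adjustment over all 10770 genes. For single genes, log2(CPM + 0.1) was also permuted between groups in an exact two-sided test. FPKM was tested by limma 3.58.1 on log2(FPKM + 1) or log2(FPKM + 0.1), fold changes being on that scale. Other alternatives were DESeq2 1.42.0, limma-voom, other scaling factors and filters, the paper's fold change threshold of 1.5, the replicate number as a block and each library left out. The summed fit of H2ac18 and H2ac19 was added after the data were seen. The code was tested on simulated data.

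The members and gene lists were chosen with earlier results of these data known. H1f9, placed with the variants, and H3f4, placed with the pseudogenes, were not named in the class rule, and H1f6, H2ac1 and H2bc1, testis genes, were kept in the clusters. Values per library are given for tested genes with a mean count of at least 100 and for the extreme fold changes of each class, and from each list the 3 highest and 3 lowest genes called are named. Coordinates and transcripts are those of GENCODE M21 on GRCm38, matched by identifier for all 79 genes, and promoters those of RefSeq, found for 68. Overlapping genes cannot be separated in the counts, and 6 of the 13 tested genes share exon bases with another annotated gene.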

Additional observations from a re-analysis of the deposited data

How the results depend on the processing

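H2ax, H1f0, H3f3b, H2az1 and H2bc4 kept their direction and their call in every alternative fit at an adjusted p of 0.05. With the paper's fold change threshold of 1.5 added, the variants had 1 call lower, H2ax, and the replication-dependent genes 0 higher. One variant, H3f3a, was called higher (a count of 1) with upper-quartile factors, library size alone, FPKM + 1 and FPKM + 0.1, and the variant median was then -0.18, -0.14, -0.14 and -0.14. Without the filter, 1 replication-dependent gene was called lower, on the counts of control replicates 3 and 4, and the class median was -0.86, because genes of a few counts entered. With libraries left out in turn that median ranged from -0.094 (without control replicate 1; -0.082 without tranilast replicate 4) to 0.14. As shares of the summed FPKM, the replication-dependent genes took 0.00606% in control and 0.00643% in tranilast libraries, and the variants 0.282% and 0.249%. Genes not called changed sign: H2ac18 (-0.14 to 0.33), H4c9 (-0.19 to 0.21) and H1f10 (-0.28 to 0.22) with libraries left out, H1f10 to 0.015 with library size alone, and H2az2 to 0.0047 with upper-quartile factors, 0.054 with library size alone, 0.043 with FPKM + 1 and 0.045 with FPKM + 0.1. Of 34 genes checked, 28 kept direction and call throughout. Not every gene named above was among the 34. Hinfp was not, and its log2 fold change ranged from -0.07 to 0.14 over the alternatives. H1f10 and H4c9 could not be fitted with at least 10 counts in every library. The 61 replication-dependent genes under the filter were not tested in the main fit, and the reason for their low counts was not tested.

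The same-numbered libraries did not deviate together (correlations of -0.06, -0.04, 0.01 and 0.10), so the numbers were not taken to pair them. With the replicate number as a block 1 replication-dependent gene was called higher and 4 variants lower, as without it, and H2bc4 had a log2 fold change of 0.48.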

Other observations

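Histone genes whose symbols carry other prefixes were counted separately, from a list of 27 of which 25 were in the table and 3 passed the filter. All 3 were called lower in the tranilast group by edgeR, beside 28.8% of all tested genes, and 2 of the 3 with library size alone, beside 17.6%. Cenpa, the H3 variant that marks centromeres, fell from 76.6 ± 1.24 to 17.3 ± 1.959 CPM (SD, n = 4), with a fitted log2 change of -2.14 (SE 0.064, adjusted p = 6.77e-15 by edgeR). Macroh2a1, the H2A variant with a macrodomain that is enriched on silent chromatin, fell from 125.5 ± 4.99 to 81.9 ± 0.60 CPM (log2 fold change -0.62, adjusted p = 2.68e-10 by edgeR). H2aj had a log2 fold change of -0.17 (adjusted p = 0.00809 by edgeR), which was not called with library size alone (-0.05, adjusted p = 0.379), upper-quartile factors (-0.10, adjusted p = 0.0935) or FPKM + 1 (-0.09, adjusted p = 0.199). The untested genes of the list had at most 7.04 counts, in Macroh2a2. Among the histone genes of all prefixes examined, Cenpa and H2ax were the histone genes lower by a log2 fold change of at least 1.5, a size that 0.483% of all tested genes reached.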
